A study of Homo sapiens with 6 samples.

Results

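The immediate early genes described here are 10 genes of the AP-1 and EGR group, namely *FOS*, *FOSB*, *FOSL1*, *FOSL2*, *JUN*, *JUNB*, *JUND*, *EGR1*, *ATF3* and *IER2*. They were taken as the probe sets whose only gene symbol is one of these names, and each gene had 1 such probe set. They are 10 of the 18404 genes that the arrays measured with a probe set of a single symbol. The cells are of MUG-Chor1, a line derived from a chordoma of the sacrum and coccyx, a malignant bone tumor that resembles the notochord. They grew in serum-containing medium and were trypsinized. By the methods, they were then picked by micromanipulation as pools of 20 large physaliferous (vacuolated) cells or 20 small non-vacuolated cells. The cDNA of every pool was amplified and read on an Affymetrix Human Gene 1.0 ST array, and arrays of 3 large pools (pools 2, 3 and 4) and 3 small pools (pools 5, 6 and 7) were compared. Neither group received a drug or a genetic change, and all pools come from the same line. The sources used here do not say whether the pools came from separate cultures, and p-values here cover no more than the spread among these pools, which may be technical.

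AP-1 is a family of dimeric transcription factors built from FOS, JUN and ATF proteins, which pair through a leucine zipper and bind DNA with the adjoining basic region. *EGR1* encodes a zinc finger factor, and *IER2* a nuclear protein of the same early response. As a class, immediate early genes are transcribed within minutes of a stimulus, without new protein synthesis. Such a stimulus can be serum, a growth factor, stress or the enzymatic release of cells from a dish. Many RNAs of these genes are short-lived. Signals of the ERK, JNK and p38 kinases reach their promoters through the serum response factor, which binds the CArG box together with ETS factors, and through CREB and ATF proteins, which bind the cAMP response element.

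The promoter letters that receive these signals are shown for 4 of the genes, because *EGR1* was the gene with the smallest p and because *FOS*, *FOSB* and *JUN* carry the elements for which their families are known. The stretches are those before the RefSeq start in GRCh38.p14, each read 5′ to 3′ on the strand of the gene. For *EGR1* they are 250 bases at chr5:138465229-138465478 on the plus strand. For the others they are 90 bases each, at chr14:75278738-75278827 (*FOS*, plus), chr19:45467906-45467995 (*FOSB*, plus) and chr1:58784048-58784137 (*JUN*, minus). Capitals mark the EGR element and the CArG boxes in *EGR1*, the core TGACG of the cAMP response element and the TATA box in *FOS* and *FOSB*, and the related TGACATCA in *JUN*.
EGR1: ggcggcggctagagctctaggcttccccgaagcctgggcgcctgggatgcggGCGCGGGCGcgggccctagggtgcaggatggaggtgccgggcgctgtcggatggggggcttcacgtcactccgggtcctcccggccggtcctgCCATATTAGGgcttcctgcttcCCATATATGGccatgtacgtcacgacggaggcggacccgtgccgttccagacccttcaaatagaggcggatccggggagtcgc
FOS: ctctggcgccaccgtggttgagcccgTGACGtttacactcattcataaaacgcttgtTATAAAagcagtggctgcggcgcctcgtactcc
FOSB: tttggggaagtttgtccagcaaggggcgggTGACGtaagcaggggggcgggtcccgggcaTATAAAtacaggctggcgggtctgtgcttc
JUN: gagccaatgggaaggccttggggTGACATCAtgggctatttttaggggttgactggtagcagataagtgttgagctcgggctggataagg
The motifs were searched on both strands in windows of 300 bases, 250 before and 50 after each start, and 9 of the 10 genes matched 10 windows (*FOSL1* had no entry). *EGR1* was the only one of these genes with a CArG box in its window, with matches that begin 105 and 83 bases before the start, and 1.29% of all 35116 windows hold one. The core TGACG was found for 8 genes and in 24.6% of all windows. *JUND* holds the full element TGACGTCA (1.85% of all windows), which contains the core. TGACATCA was found for *JUN* and *ATF3* (2.61% of all windows), TATAAA for *FOS*, *FOSB*, *JUNB* and *ATF3* (11.5%), the TPA response element TGANTCA for *FOSL2* (7.71%) and the EGR element GCGNGGGCG for *EGR1* (9.43%). These matches describe letters in these windows only. Elements farther from the start, among them any CArG box of the other genes, were not searched.

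Large and small cells had similar values for the AP-1 and EGR genes. Of the 10 genes, 8 had a lower and 2 a higher mean log2 expression in large cells, and the fold changes ran from -0.39 for *EGR1* to 0.04 for *JUN* on the log2 scale. The median of the 10 was -0.16, beside -0.11 over all 18404 genes, of which 66.4% had a fitted value below 0 and 33.6% above. All 10 values were under 0.5 in size, as were 89.9% of those of all genes. After each array was centred on its own median, the median of the 10 was -0.05 and 6 were lower, *JUNB* and *ATF3* having turned to 0.02 each, while 50.7% of all genes were lower. A further quantile normalization left 7 lower, with *ATF3* at 0.03. The 95% confidence intervals of the 10 genes reached from -0.79 to 0.33. None of them therefore included a change of 1 on the log2 scale in either direction, as held for 82.5% of all genes. These intervals are of array signals, and those of *FOSB*, *ATF3* and *IER2* were near background in some or all pools. For these genes a narrow interval does not bound the change in RNA.
By limma with Benjamini-Hochberg adjustment 0 of the 10 genes and 0 (0%) of all genes passed an adjusted p under 0.05 with an absolute log2 fold change above 1. The smallest adjusted p over all genes was 0.14. At an unadjusted p under 0.05 was 1 of the 10 genes, *EGR1*, which was lower, beside 10.5% of all genes lower, 4.33% higher and 14.8% in either direction. Those shares stand for 1934 lower and 797 higher genes, and they turned with the scaling, to 1093 and 808 after quantile normalization and to 571 and 1342 after centring. All large pools lay below all small pools for 2 of the 10 genes, *EGR1* and *JUND*, beside 21.6% of all genes. The opposite held for 0 of the 10 and for 5.48% of all genes, and either held for 27% of all genes. With 3 against 3 the two-sided exact permutation p cannot go below 0.1.

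**Figure D1:**
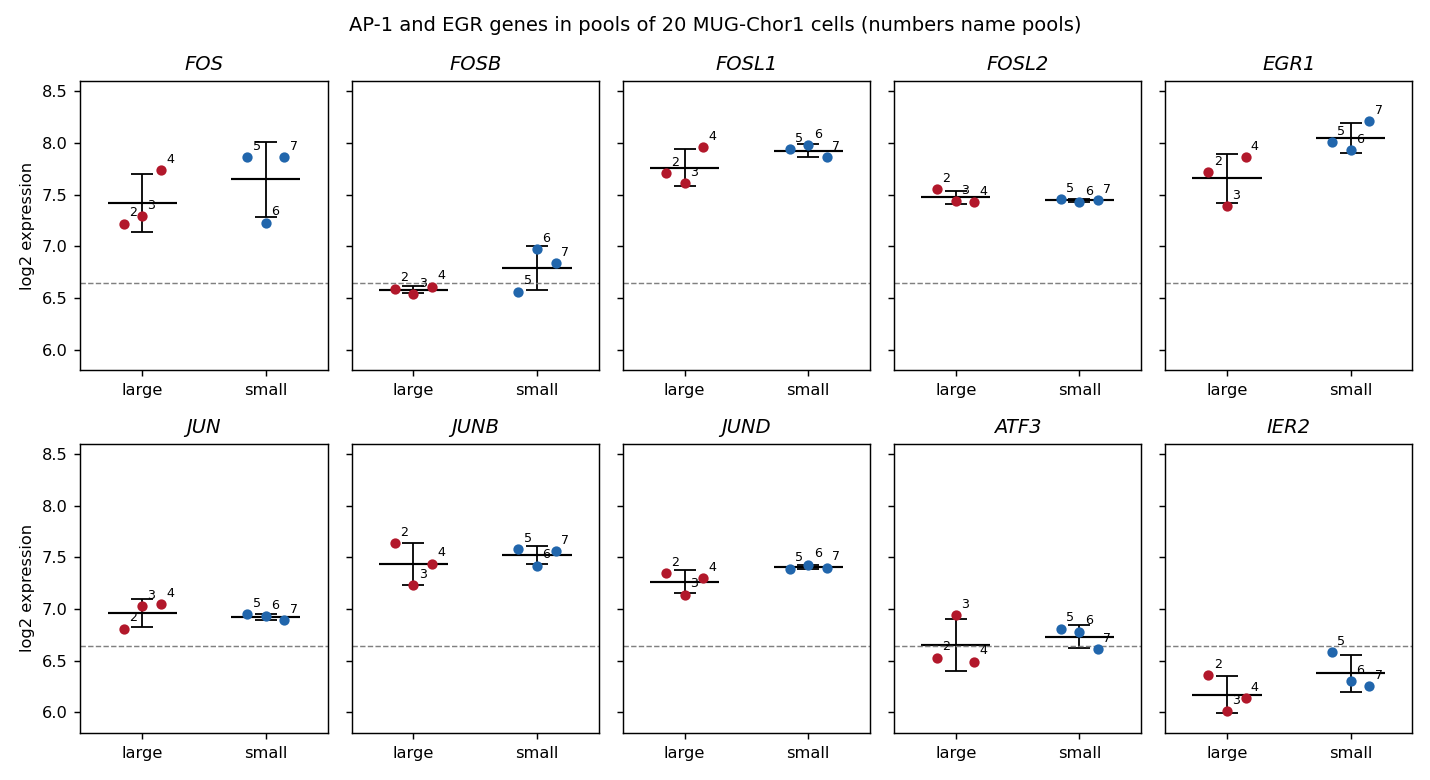
Log2 expression (vertical axis) by group of MUG-Chor1 cells (horizontal axis), with a panel for each of the 10 genes. Numbered points stand for pools, horizontal lines for means, bars for the SD over 3 pools and the dashed line for the floor of 6.64. *EGR1* and *JUND* are the panels in which every large pool sits below every small pool, and *IER2* sits below the floor in all 6 pools.

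The expression floor used here is log2(100), or 6.64, below which a signal was treated as near background. Of the 10 genes 7 were above it in all 6 pools, namely *FOS*, *FOSL1*, *FOSL2*, *JUN*, *JUNB*, *JUND* and *EGR1*, whereas 43.4% of all genes were. *IER2* was above it in 0 of 6 pools, *FOSB* in 2 (small pools 6 and 7) and *ATF3* in 3 (large pool 3 and small pools 5 and 6). Fold changes of these last genes are therefore between signals near background and give no exact size. In a pool of cells, fewer cells with an RNA and less of it per cell cannot be told apart.

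*EGR1*, on chromosome 5 (138465479 to 138469303 in GRCh38.p14), encodes a zinc finger factor that activates growth and matrix genes. Its log2 expression was 7.72, 7.39 and 7.86 in large pools 2, 3 and 4, and 8.01, 7.93 and 8.21 in small pools 5, 6 and 7. The groups did not overlap, but large pool 4 lay only just below small pool 6, and large pool 3 was the lowest. Large cells averaged 7.66 ± 0.24 (SD, n = 3 pools) and small cells 8.05 ± 0.14 (SD, n = 3 pools). The log2 fold change of -0.39 had a standard error of 0.15 and a 95% confidence interval of -0.77 to -0.02. On the linear scale large cells had 0.761 of the level of small cells, with an interval from 0.587 to 0.986. The unadjusted p from limma was 0.042, the adjusted p 0.33, and the two-sided exact permutation p 0.1.
The difference of *EGR1* kept its direction in every setting in which the gene was measured. With a trended and robust variance its unadjusted p by limma was 0.063. Centring the arrays brought the difference to -0.29 (unadjusted p = 0.096 and adjusted p = 0.54 by limma) and let the groups overlap. Quantile normalization brought it to -0.44 (unadjusted p = 0.017 and adjusted p = 0.46 by limma). With 1 pool left out at a time it lay between -0.49 and -0.26 and limma's unadjusted p between 0.026 and 0.12. It stayed under 0.05 only without large pool 4. Without large pool 3 the fold change was -0.26 (limma adjusted p = 0.49).

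Among the FOS proteins, which need a JUN partner to bind DNA, *FOS* itself varied most between pools. It had 7.22, 7.29 and 7.74 in large pools 2, 3 and 4, and 7.86, 7.23 and 7.86 in small pools 5, 6 and 7. Large pool 4 and small pools 5 and 7 were high and the other pools low, so the groups overlapped over nearly their whole range. The log2 fold change was -0.23 (standard error 0.23, interval -0.79 to 0.33, limma adjusted p = 0.60). Its spread within the groups, a residual SD of 0.33, was the largest of the 10 genes, and 23.8% of all genes had a larger one. Without small pool 6 the groups of *FOS* did not overlap, and the fold change was -0.44 (limma adjusted p = 0.47). It was -0.39 without large pool 4, -0.13 without large pool 2 and -0.12 without small pool 5 or small pool 7.
*FOSB*, a close relative of *FOS* known for its long-lived splice form in brain, had 6.59, 6.54 and 6.61 in the large pools, all below the floor, and 6.56, 6.97 and 6.84 in the small pools. Small pools 6 and 7 stood above the rest while small pool 5 lay among the large pools. The log2 fold change was -0.21 (standard error 0.13, limma adjusted p = 0.42). Without small pool 5 it was -0.33, with an unadjusted p of 0.031 and an adjusted p of 0.49 by limma, and without small pool 6 it was -0.12 with an adjusted p of 0.67.
*FOSL1*, the FOS relative linked to invasive growth in many tumors, had 7.71, 7.61 and 7.96 in the large pools and 7.94, 7.98 and 7.86 in the small pools. Large pool 4 lay among the small pools, and without it the groups did not overlap. *FOSL2*, which acts in cartilage and bone, had 7.55, 7.44 and 7.43 in the large and 7.46, 7.43 and 7.45 in the small pools. Its 6 values spanned 0.12, the narrowest range of the 10 genes, and its log2 fold change was 0.03 (interval -0.19 to 0.24). After centring, its large pools all lay above its small pools, with a log2 fold change of 0.13 (limma adjusted p = 0.60).

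The JUN proteins can pair with each other as well as with FOS proteins. *JUN*, the target of the JNK kinases, had 6.81, 7.03 and 7.05 in large pools 2, 3 and 4, and 6.95, 6.93 and 6.89 in the small pools. The small pools lay inside the range of the large pools, and the log2 fold change was 0.04 (interval -0.22 to 0.29, limma adjusted p = 0.86). *JUNB*, which often opposes *JUN* in growth control, had 7.64, 7.23 and 7.44 in the large and 7.58, 7.42 and 7.56 in the small pools. Here too the small pools lay inside the large range, with a log2 fold change of -0.09 (interval -0.41 to 0.24), which turned to 0.02 after centring and without large pool 3.
*JUND*, the JUN protein present in many resting cells, had 7.35, 7.14 and 7.30 in the large pools and 7.39, 7.43 and 7.40 in the small pools. Every large pool was below every small pool, the nearest pair being 7.35 and 7.39. The log2 fold change was -0.14 (standard error 0.10, interval -0.38 to 0.09, limma adjusted p = 0.45), and -0.04 after centring, where the groups overlapped. The median log2 fold change was -0.19 for the 4 FOS genes and -0.09 for the 3 JUN genes.

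*ATF3*, a stress-induced factor that can repress its targets, had 6.53, 6.94 and 6.49 in the large pools and 6.81, 6.78 and 6.61 in the small pools. Large pool 3 was the highest of the 6 and large pool 4 the lowest, so the groups overlapped entirely. The log2 fold change was -0.08 (interval -0.45 to 0.28, limma adjusted p = 0.78), with the sign turned by centring and by quantile normalization. *IER2* had 6.36, 6.01 and 6.14 in the large pools and 6.58, 6.30 and 6.25 in the small pools, all below the floor. Its log2 fold change was -0.21 (interval -0.56 to 0.14, limma adjusted p = 0.46).

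**Figure D2:**
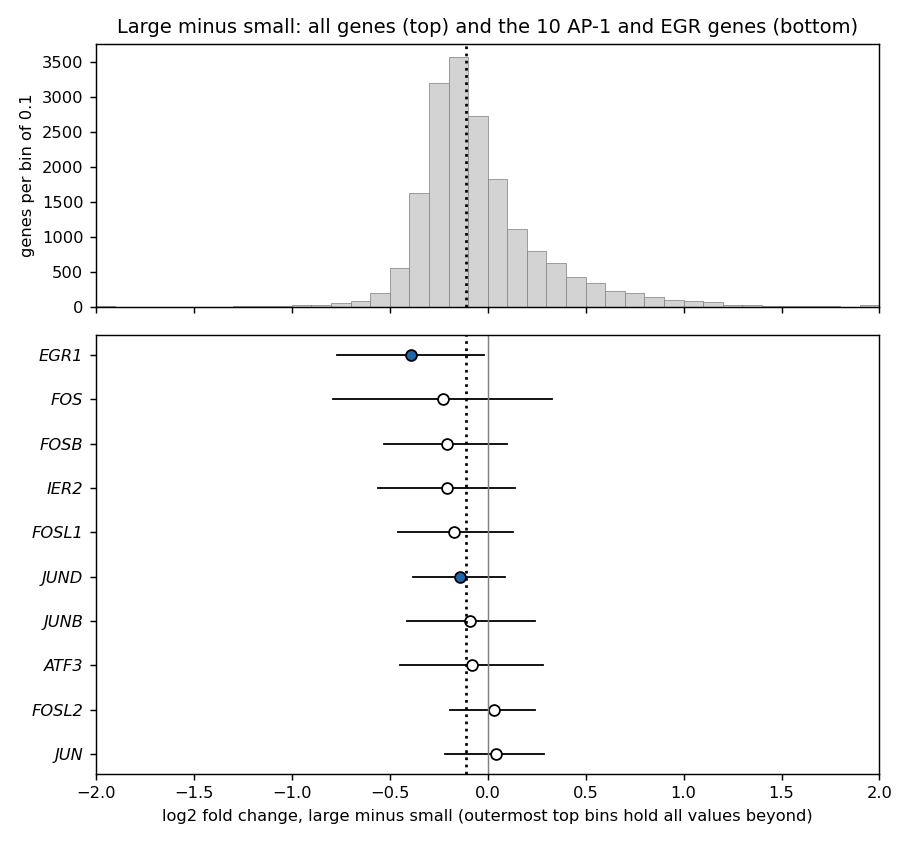
Log2 fold change of large minus small cells (horizontal axis) for all 18404 genes as a histogram (top, genes per bin of 0.1) and for the 10 AP-1 and EGR genes with 95% confidence intervals from limma (bottom, 3 pools against 3). The dotted line is the median of all genes, -0.11, and filled points are *EGR1* and *JUND*, whose groups did not overlap in the deposited values. The interval of *EGR1* ends just below 0 and the others include 0, and the signs of *JUNB* and *ATF3* turned after centring.

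The 6 pools were also compared over the 10 genes, each gene set against its own mean. Large pool 3 held the lowest value of 6 of the 10 genes, and its mean deviation was -0.15 on the log2 scale. Large pools 2 and 4 had -0.06 and -0.01, and small pools 5, 6 and 7 had 0.10, 0.03 and 0.08. Large pool 3 also had the lowest array median over all genes, 6.73, beside 6.81 and 6.78 in the other large pools and 6.85 to 6.91 in the small pools. The part of this shift in the gene values was tested only through the centring given above.
Mitosis genes differed between the pools in another way. The mean log2 expression of 20 mitosis genes was 6.52 and 6.42 in large pools 2 and 3, but 8.41 in large pool 4, and 7.92, 8.12 and 7.31 in small pools 5, 6 and 7. *NUSAP1*, a spindle protein gene, had 5.63 and 5.59 in large pools 2 and 3 and 9.16 in large pool 4, against 8.63 to 9.25 in the small pools. *CENPF*, a kinetochore protein gene, had 6.45 and 5.97 in large pools 2 and 3, 8.33 in large pool 4 and 7.56 to 9.11 in the small pools. Of the 20 genes 16 were lower and 4 higher in large cells, beside 66.4% of all genes lower. At an unadjusted limma p under 0.05 were 0 of them, beside 14.8% of all genes. Of the large pools, pool 4 had the highest *FOS*, *FOSB*, *FOSL1*, *JUN* and *EGR1*, but the lowest *FOSL2* and *ATF3*, and its *JUNB*, *JUND* and *IER2* lay below those of pool 2. The part of cell cycle stage in these values was not tested.

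**Figure D3:**
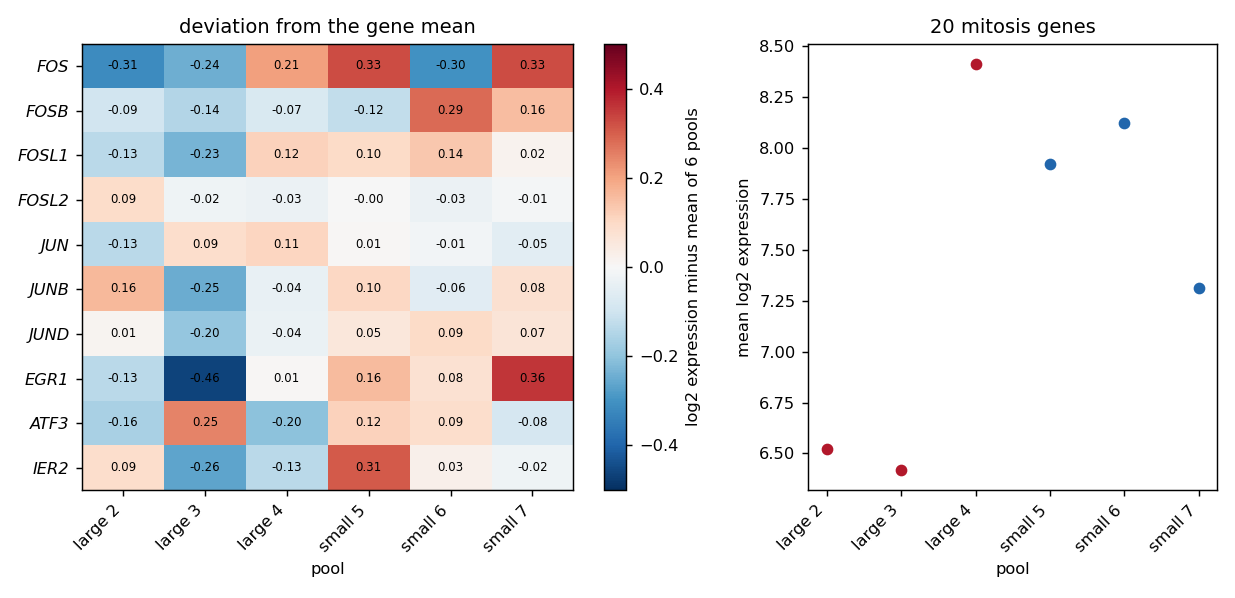
Left, log2 expression of each of the 10 genes in each pool minus the mean of that gene over the 6 pools (colour and number). Right, mean log2 expression (vertical axis) of 20 mitosis genes in each pool, large in red and small in blue. The column of large pool 3 is lowest for 6 genes, and large pool 4 stands at 8.41 in mitosis genes, apart from large pools 2 and 3 at 6.52 and 6.42.

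The genes whose profiles over the 6 pools were most like those of the most variable members were named by the root mean square difference of log2 values, each gene centred on its mean. For *FOS* these were *DMXL1* (0.048), *EEF2KMT* (0.059), *MTHFSD* (0.076), *GTF3C1* (0.093) and *SMARCD1* (0.097), with 491 genes within 0.2 (the SD of *FOS* over the pools was 0.32). *DMXL1* had 7.63, 7.58 and 8.10 in the large pools and 8.27, 7.55 and 8.17 in the small pools, again low in small pool 6. For *EGR1* they were *PIMREG* (0.044), its relative *EGR4* (0.048), *ITGAE* (0.049), *AFAP1L2* (0.050) and *HES6* (0.050). *AFAP1L2* was below the floor in all 6 pools. Within 0.2 of *EGR1* lay 3973 genes, but with an SD of *EGR1* over the pools of 0.28 this limit also admits much flatter profiles.

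Other immediate early genes were counted in the same way. Of 46 listed genes 44 were measured, of which 31 were lower and 13 higher in large cells (66.4% of all genes were lower), with a median log2 fold change of -0.13 beside -0.11 over all genes and of -0.02 after centring. At an unadjusted p under 0.05 by limma 3 were lower and 0 higher, beside 10.5% and 4.33% of all genes, and 0 passed after adjustment. The pools of 12 did not overlap, beside 27% of all genes. *ARC*, the activity-regulated gene of synapses, had 7.54, 7.51 and 7.57 in the large and 7.81, 7.90 and 7.98 in the small pools. All large pools lay below all small pools, with a log2 fold change of -0.36 (standard error 0.09, limma adjusted p = 0.32), and of -0.25 after centring. *IER5* had a log2 fold change of -0.34 and *DUSP2*, a phosphatase that switches off ERK, had -0.34, each with an adjusted p of 0.32 by limma.

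The partners of the 10 genes and the kinases and factors that lead to them were counted next. Of 27 listed bZIP partners 24 were measured, 11 higher and 13 lower, beside 66.4% of all genes lower. At an unadjusted limma p under 0.05 were 2 higher and 2 lower, beside 14.8% of all genes in either direction. Their median was -0.05 on the log2 scale, beside -0.11 over all genes, and 0.06 after centring. Single genes of these lists had larger differences than any of the 10. *CREB1* encodes a factor that binds the cAMP response element, of which only the core was shown above for *FOS* and *FOSB*. Its binding was not measured. *CREB1* had 9.26, 8.86 and 8.25 in large pools 2, 3 and 4, and 7.63, 7.71 and 6.86 in small pools 5, 6 and 7. Every large pool was above every small pool, with large pool 4 nearest to the small pools. The log2 fold change was 1.39 (standard error 0.33, interval 0.58 to 2.20), the unadjusted p 0.0055 and the adjusted p 0.32 by limma. It lay between 1.12 and 1.66 with 1 pool left out.
*DDIT3*, a factor of the endoplasmic reticulum stress response, had 8.35, 8.30 and 7.94 in the large and 7.70, 7.69 and 7.81 in the small pools, a log2 fold change of 0.46. The lower genes were *CEBPD*, a C/EBP factor of acute inflammation, with -0.46 and *MAFA*, known from insulin-producing cells, with -0.46. *CEBPD* was above the floor in 1 of 6 pools and *MAFA* in 4, and the limma adjusted p of all 3 genes was 0.32.

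Of 36 listed kinases and transcription factors that lead to the 10 genes, 28 were measured. In large cells 10 were higher and 18 lower, beside 66.4% of all genes lower, and the median of -0.12 (-0.02 after centring) stood beside -0.11 over all genes. At an unadjusted limma p under 0.05 were 3 higher and 2 lower, beside 14.8% of all genes. *MAPK9*, the kinase JNK2 that phosphorylates *JUN* protein, had 9.52, 8.90 and 8.86 in the large pools and 6.60, 8.38 and 7.73 in the small pools. All large pools were above all small pools, but the small pools were widely spread, with pool 5 below the floor. Large exceeded small cells by 1.52 on the log2 scale (standard error 0.46, interval 0.40 to 2.64, limma adjusted p = 0.32).
*MAP2K5*, which activates ERK5, had a log2 fold change of 0.77 and was above the floor in 2 of 3 large and 0 of 3 small pools. *MAP3K1*, a kinase upstream of JNK, had 0.46 with overlapping groups and was above the floor in 3 of 6 pools. The values of *MAP2K5* and *MAP3K1* therefore give no exact size. *MAP2K1*, the ERK kinase MEK1, had 7.55, 7.90 and 7.45 in the large and 7.99, 7.96 and 8.37 in the small pools, a log2 fold change of -0.47. *RPS6KA4*, a kinase that acts on CREB, had 6.75 to 6.86 in the small pools and was below the floor in all large pools, so that its value of -0.25 gives no exact size. The limma adjusted p of these 4 genes was 0.32 to 0.34.
Among 13 listed regulators of AP-1 and EGR proteins 11 were measured, 7 higher and 4 lower, beside 33.6% of all genes higher. Their median was 0.03 on the log2 scale (0.13 after centring), beside -0.11 over all genes. At an unadjusted limma p under 0.05 was 1 gene, beside 14.8% of all genes. It was *GSK3B*, a kinase that marks *JUN* protein for degradation, with 9.32, 9.10 and 9.67 in the large and 8.95, 8.26 and 8.42 in the small pools. The groups did not overlap, with a difference of 0.82 on the log2 scale (standard error 0.23, interval 0.26 to 1.38, limma adjusted p = 0.32).

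**Figure D4:**
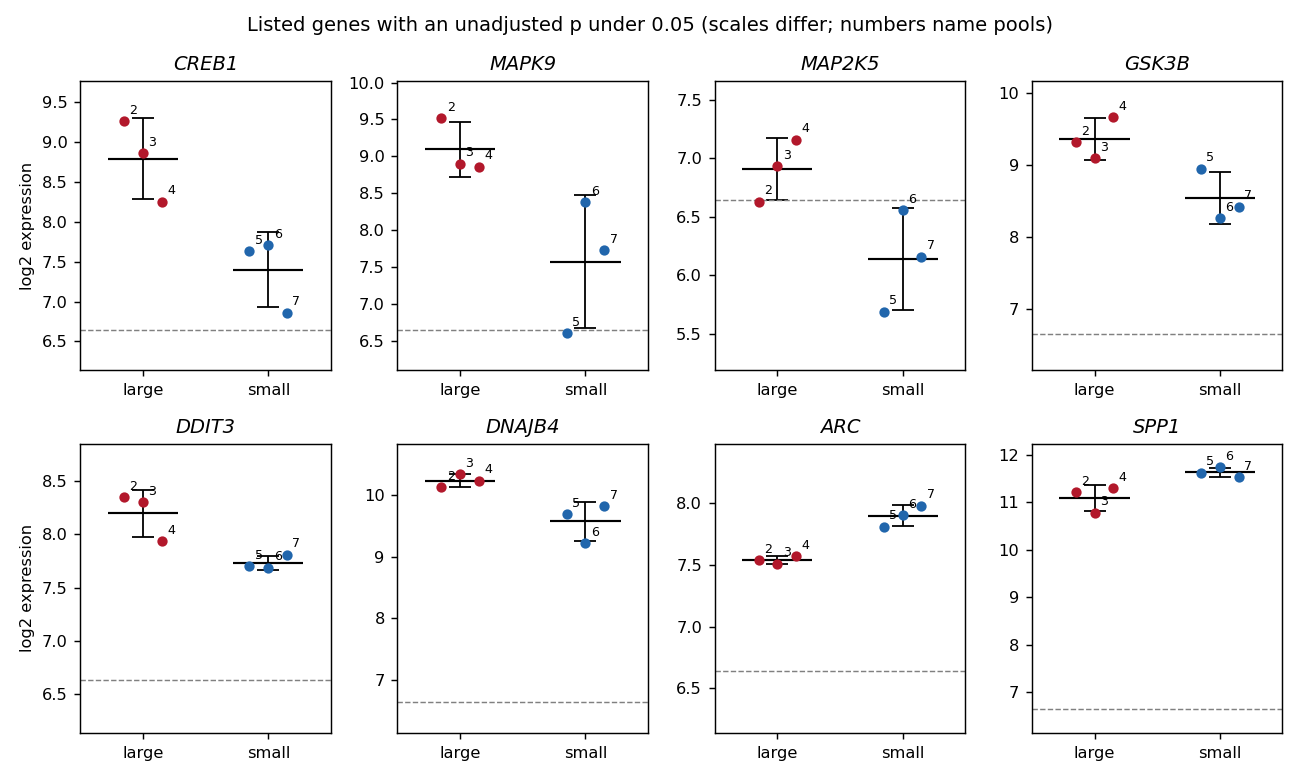
Log2 expression (vertical axes, which differ in scale) in each pool of large and small cells for 8 of the listed genes at an unadjusted limma p under 0.05. Numbered points stand for pools, horizontal lines for means, bars for the SD over 3 pools and the dashed line for the floor of 6.64. *CREB1*, *MAPK9*, *MAP2K5*, *GSK3B*, *DDIT3* and *DNAJB4* have every large pool above every small pool (5.48% of all genes), and *ARC* and *SPP1* the opposite (21.6%). None passed after adjustment, and the genes plotted were picked after their values were seen. Not plotted, cell type markers aside, were *MAP3K1*, which was higher, and *IER5*, *DUSP2*, *CEBPD*, *MAFA*, *MAP2K1*, *RPS6KA4*, *HSF1* and *HSPB1*, which were lower.

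Of 25 listed targets of AP-1 and EGR1, such as metalloproteinases, plasminogen activators and growth factors, 22 were measured, 6 higher and 16 lower (66.4% of all genes were lower). Their median was -0.08 on the log2 scale and turned to 0.03 after centring. At an unadjusted limma p under 0.05 was 1, beside 14.8% of all genes. It was *SPP1*, which encodes the matrix protein osteopontin. It had 11.21, 10.78 and 11.29 in the large and 11.62, 11.73 and 11.53 in the small pools. Its log2 fold change of -0.53 had a standard error of 0.16 and a limma adjusted p of 0.32. Large pool 3 was again the lowest.
Heat shock and dissociation stress genes were listed because all pools had been trypsinized and picked. Of 18 listed 16 were measured, 9 higher and 7 lower, beside 33.6% of all genes higher. The median log2 fold change was 0.02, beside -0.11 over all genes, and 0.13 after centring. At an unadjusted limma p under 0.05 were 1 higher and 2 lower genes, beside 4.33% and 10.5% of all genes. The higher one was *DNAJB4*, a co-chaperone of HSP70, with 0.65, and the lower ones were *HSF1*, the heat shock transcription factor, with -0.32 and *HSPB1*, a small heat shock protein, with -0.26. The list mean was 9.37 to 9.52 in the large and 9.40 to 9.46 in the small pools, so these ranges overlapped.

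The labelled cell type was checked by its markers. All 9 notochord and chordoma markers were above the floor in all 6 pools, and the range of their mean was 9.83 to 9.94 in the large and 9.83 to 9.93 in the small pools. Of 5 leukocyte markers *PTPRC* and *LYZ* were below the floor in all 6 pools, *CD3E* was above it in 1, *CD14* in 4 and *CD68* in 6. The mean of these markers was 6.11 to 6.44 in the large and 6.12 to 6.41 in the small pools. Of 4 endothelial markers *PECAM1*, *CDH5* and *VWF* were below the floor in all 6 pools, whereas *KDR* was above it in all 6, with 7.41 in large and 7.30 in small cells. Their mean was 6.18 to 6.35 in the large and 6.34 to 6.43 in the small pools. Of 8 fibroblast markers *DCN* and *FAP* were below the floor in all 6 pools, *LUM* was above it in 3 and *PDGFRB* in 5. *THY1*, *COL1A1*, *COL3A1* and *COL1A2* were above it in all 6, *THY1* with 9.68 in large and 10.14 in small cells. *CD68* had 8.88 ± 0.18 in large and 8.28 ± 0.39 in small cells (SD, n = 3 pools each), with overlapping groups. All 8 fibroblast markers, 4 of them above the floor in all pools, had lower means in large cells, as did 66.4% of all genes. The list mean was 6.70 to 6.84 in the large and 6.96 to 7.24 in the small pools. The median log2 fold change of the 8 was -0.16, beside -0.11 over all genes, and -0.06 after centring. All pools were picked from the same cell line. A link of these markers to the lower values of *EGR1* and *JUND* was not tested. The means of 10 reference genes, among them *GAPDH* with -0.15 and *TBP* with -0.44, were 9.74 to 9.78 in the large and 9.62 to 10.07 in the small pools.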

How the data were processed

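The arrays held amplified cDNA of pools of 20 MUG-Chor1 cells, 3 large and 3 small, grouped by the labels. The labels mention cytocentrifugation onto slides, whereas the methods describe micromanipulation for the array pools, and the methods were followed here. Each column that the authors deposited is 1 array of log2 expression values, made by robust multi-array averaging (background correction, quantile normalization and median polish), without pooling of replicates. For this step the methods state affy, run in R, whereas Affymetrix Expression Console stands in the notes of the submitters. Which chip definition file they used is not given in the sources at hand.

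Of 32321 probe sets 19158 had 1 gene symbol, 1388 several and 11775 none in the platform annotation. Symbols were updated by Entrez ID to RefSeq of GRCh38.p14 (30 without a match), and the brightest probe set per gene was kept, which gave 18404 genes. Large minus small was fitted with limma 3.58.1 in R 4.3.3 without a covariate or a filter, with Benjamini-Hochberg adjustment over all genes. The thresholds are those of the methods. Their filter on unexpressed and unchanging genes has no stated limits and was an alternative. The test was tested on simulated data. Precision is limited by the number of arrays.

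The members and lists were chosen with earlier results of these data known. Named are the 10 members and, of each list, up to 6 genes at an unadjusted p under 0.05, or else the 2 with the smallest p, and of the cell type markers those described by their level. *CREB1*, *MAPK9*, *MAP2K5*, *GSK3B*, *DDIT3*, *DNAJB4*, *ARC* and *SPP1* were picked for the plot after their values were seen. Profiles alike were named for the 2 expressed members with the largest SD. Promoter sequences come from RefSeq. Alternatives covered the variance model, array weights, scaling, filters, the unit tested, the probe set per gene and each pool left out.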

Additional observations from a re-analysis of the deposited data

How the results depend on the processing

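No member and no gene was called under any of the 14 alternatives, the lowest adjusted p of a member from limma being 0.33. *EGR1* was at an unadjusted p under 0.05 in 5 of the 13 alternatives that measured it. The count of members at an unadjusted p under 0.05 was 1 as reported and 0 with a trended and robust variance, after centring, over all probe sets and with the filter on floor and interquartile range, and 0 to 1 with 1 pool left out. That filter kept 1 member, *FOS*, with a median of -0.23, 0 higher, 0 whose pools did not overlap, and at that threshold 301 probe sets higher and 78 lower. After centring the median of the members was -0.05, 4 were higher, 1 (*FOSL2*) had pools that did not overlap, and 1342 genes were higher and 571 lower. Lower genes numbered 1093 after quantile normalization and 1096 above the floor. With 1 pool left out they numbered 1021 (without small pool 5) to 1591, the members higher in large cells 1 to 3 and those whose pools did not overlap 2 to 4. Of 130 member values 6 changed sign. *ATF3* was 0.03 after quantile normalization and 0.02 after centring, and *JUNB* 0.02 after centring. With 1 pool left out *FOSL2* ran from -0.01 to 0.05, *JUN* from -0.01 to 0.11 and *JUNB* from -0.19 to 0.02. Of 279 values of the genes named from the lists other than cell type markers 0 changed sign and 0 passed, and single markers and genes of like profile were not run under the alternatives. The median of the mitosis list ran from -1.27 (without large pool 4) to -0.22, the widest move among the lists. The cause of these moves was not tested. No paired analysis was possible because the large and small pools share no replicate number.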
